A study of Homo sapiens with 18 samples.

Results

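The comparison is of KBM7 cells given dCeMM-2 with KBM7 cells given the solvent DMSO, each for 5 h. Its members were the 3 libraries of dCeMM-2 and the 3 libraries of DMSO, 6 of the 18 libraries of the series, and every annotated human gene counted in them. KBM7 is a human chronic myelogenous leukaemia line that carries the BCR-ABL1 fusion kinase, and dCeMM-2 was used at 10 times its EC50, without a statement in the labels of what that EC50 measured. The dCeMM-3 and dCeMM-4 libraries, 3 each, had the same line, time and multiple of EC50, and the 3 THZ531 libraries were given 600 nM for the same time. All groups used 1 cell line with no further genetic change in the labels, so nothing here shows which responses depend on that line or on the presence of cyclin K. The measurement was poly-A enriched RNA sequencing with synthetic ERCC and SIRV RNAs added to each library.

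Cyclin K, encoded by CCNK, is the activating subunit of the kinases CDK12 and CDK13. These kinases phosphorylate the C-terminal tail of RNA polymerase II and are known for keeping the polymerase in productive elongation, for preventing early cleavage and polyadenylation inside introns, and for the expression of long DNA repair genes. dCeMM-2 is known as a molecular glue, a compound that holds 2 proteins together that do not otherwise bind, here CDK12 with its cyclin K and DDB1, the adaptor of the CUL4 ubiquitin ligase, which leads to ubiquitination and destruction of cyclin K. RNA counts do not measure the cyclin K protein, and whether it was lost in these cultures cannot be read from them.

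The 6 libraries held 4598576 to 16966951 gene counts, with DMSO replicate 3 the shallowest. Spike-in RNA made up 0.202%, 0.167% and 0.168% of gene plus spike-in counts in the DMSO libraries and 0.523%, 0.429% and 0.585% in the dCeMM-2 libraries. The groups did not overlap (exact two-sided permutation test, p = 0.1, the smallest p that 3 libraries against 3 allow). How much spike-in was added, and relative to what, is not stated, so the comparison with DMSO was made on 2 scales. It is also not stated whether replicates were separate cultures, and p-values here cover only the spread between these libraries. The first, TMM, sets a gene against the bulk of the other genes and centred all tested genes at a median log2 fold change of -0.02. The second divides by the spike-in counts, is written here as "against spike-in RNA", and centred the same genes at -1.80, and whether that shift reflects less RNA per cell, fewer cells or the amounts added cannot be told apart. Levels are in CPM, counts scaled by TMM to a common library total, and "rose" and "fell" are used for genes with an edgeR adjusted p under 0.05 on the TMM scale unless spike-in RNA is named.

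Marker sums are plain shares of gene counts, in CPM without TMM scaling. The 6 epithelial markers summed to 70.7 to 75.8 CPM in DMSO and 108 to 123 CPM in dCeMM-2, with KRT5 at 0. Blood and myeloid progenitor markers, 10 in all, summed to 1848 to 1929 CPM in DMSO and 897 to 965 CPM in dCeMM-2. Most of that gap was MYB, with means of 899 and 173 CPM. LYL1 (181 and 53.6 CPM), SPI1 (167 and 57.6 CPM) and KIT (24.7 and 14.8 CPM) were also lower in dCeMM-2. So were CD34 (2.55 and 0.838 CPM) and CD38 (0.463 and 0.0846 CPM). PTPRC, the common leukocyte antigen, had 495 and 442 CPM. CD33 (30.4 and 36.2 CPM), ITGB2 (85.1 and 155 CPM) and MPO (0.119 and 0.21 CPM) were higher in dCeMM-2. The 8 lymphoid markers went from 400 to 426 CPM in DMSO to 742 to 777 CPM in dCeMM-2. Of the 8 erythroid markers 6 were at 0, including the globins HBA1, HBA2, HBB and HBG1, and of the 6 endothelial markers 5 were at 0. The fibroblast markers summed to at most 6.78 CPM with DCN at 0. The part of these marker differences in the gene results was not tested.

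After 5 h of dCeMM-2 most of the measured transcriptome had moved on the TMM scale. Of 15055 genes tested, 5585 rose (37.1%) and 6197 fell (41.2%). At 2-fold or more, 2910 rose and 3577 fell. On the spike-in RNA 223 genes were higher (1.48%) and 12490 were lower (83.0%). Of the 5585 genes that rose on the TMM scale, 223 were also higher against spike-in RNA, 3400 were lower and 1962 were not called. All 6197 genes that fell on the TMM scale were lower against spike-in RNA. Among the 12332 protein-coding genes tested, which are the background for the gene lists below, 33.6% rose, 47.5% fell and 91.1% were lower against spike-in RNA. The shares of the lists for CUL4 and neddylation, mismatch, excision and end-joining repair, DNA replication, G1 cyclins, the unfolded protein response, cholesterol synthesis, mRNA decay and the proteasome lay near these on the TMM scale, so their counts are not results about those lists. The BCL2 family, splicing kinases, other transcription kinases, elongation regulators and the MYC network had 46.7% to 58.3% falling and 12.5% to 25% rising. Their counts are not taken as results about those lists either. Against spike-in RNA, any list with all or nearly all members lower lies near the 91.1% of protein-coding genes. Such counts, given below for many lists, are not results about those lists either. The result is therefore a broad lower level against the spike-ins, with a small group of genes that stood above DMSO on either scale.

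**Figure D1:**
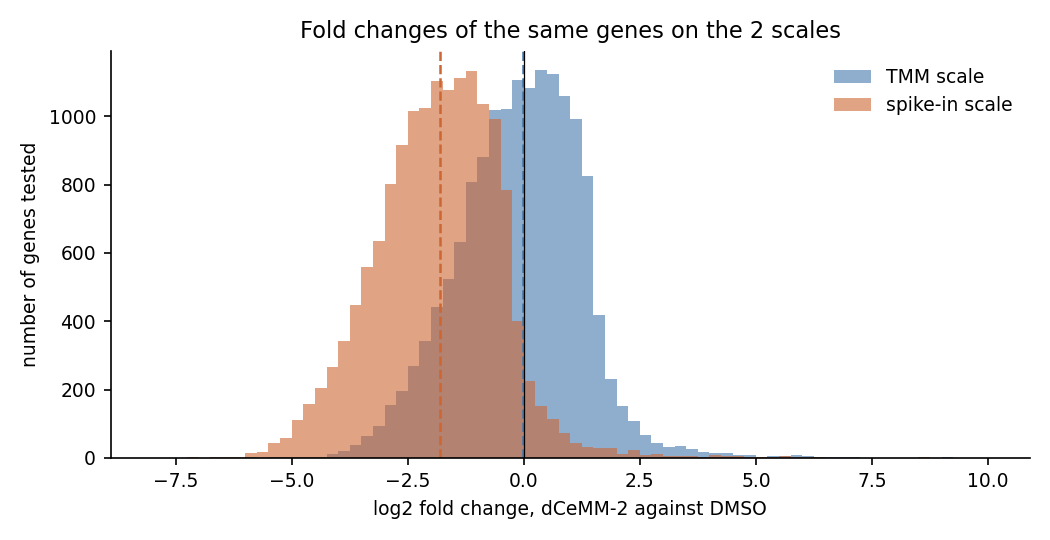
The histogram counts the 15055 tested genes by log2 fold change of dCeMM-2 over DMSO (horizontal axis), once on the TMM scale and once scaled to spike-in counts, with a dashed line at each median. The shape is nearly the same on both, with the median at -0.02 on the TMM scale and -1.80 on the other, where the part to the right of 0 is small.

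Within the target complex, the transcripts moved in different directions. CCNK itself had 123, 119 and 126 CPM in DMSO and 182, 179 and 182 CPM in dCeMM-2. It was higher on the TMM scale (log2 fold change 0.57, SE 0.06, edgeR adjusted p = 1.68e-10) and lower against spike-in RNA (-1.22, edgeR adjusted p = 1.26e-08). CDK12, the kinase partner, had 174, 180 and 182 CPM in DMSO and 44.6, 41.9 and 44.2 CPM in dCeMM-2. Its groups were separated by a wide gap, and it fell by 2.04 on the log2 scale (SE 0.07). CDK13, the other kinase partner, fell by 1.16 (SE 0.07) from a DMSO level of 109, 111 and 110 CPM. The transcript of DDB1, the adaptor to which the glue recruits the complex, was at 309, 335 and 316 CPM in DMSO and 330, 322 and 335 CPM in dCeMM-2. That was no call on the TMM scale (0.04, edgeR adjusted p = 0.581), with -1.75 against spike-in RNA. CUL4A, the ligase scaffold, fell by 0.86 (SE 0.06). Of 16 tested genes of the CUL4 ligase and of neddylation, the modification that activates it, 5 rose and 8 fell (31.2% and 50%, near the protein-coding background), and all 16 were lower against spike-in RNA.

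The largest rises among protein-coding genes were those of ARC, an early gene known from neurons, and RASD1, a Ras-like GTPase, by 6.67 (SE 0.16) and 6.66 (SE 0.28) on the log2 scale, both from DMSO levels near or under 1 CPM. IER5L, of the IER family of early response genes, had 7.87, 8.09 and 8.05 CPM in DMSO and 211, 174 and 172 CPM in dCeMM-2 and rose by 4.54 (SE 0.13). The 20 largest rises also held the tubulin gene TUBB2A, the histone gene HIST4H4 and C11orf96. They were chosen among genes whose groups did not overlap, as were the 20 largest falls, so the lack of overlap in either is no finding. Most list members named below were chosen by their low adjusted p, so the separation of their groups is no finding either. The genes named in this and the next paragraph were also called higher against spike-in RNA. SGK1, a serum- and stress-induced kinase, had 2.72, 2.35 and 2.30 CPM in DMSO and 50.9, 57.0 and 42.8 CPM in dCeMM-2. It rose by 4.34 on the log2 scale (SE 0.14) and was 2.60 higher against spike-in RNA. ID2, which blocks DNA binding by basic helix-loop-helix factors, had 24.1, 23.4 and 20.5 CPM in DMSO and 318, 323 and 288 CPM in dCeMM-2. It rose by 3.75 (SE 0.09, spike-in RNA 2.0). GADD45B, a growth arrest and DNA damage response gene, had 8.16, 7.52 and 9.01 CPM in DMSO and 101, 97.1 and 101 CPM in dCeMM-2 (3.63, SE 0.09, spike-in RNA 1.84). TNFRSF10D, a decoy receptor for the death ligand TRAIL, had 27.0, 29.2 and 28.0 CPM in DMSO and 256, 252 and 238 CPM in dCeMM-2 (3.15, SE 0.07, spike-in RNA 1.36).

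Other genes of the same leading group included RHOB, an endosomal GTPase induced by stress, which rose by 3.12 (SE 0.18). SLC7A11, the cystine transporter, had 14.2, 11.6 and 12.1 CPM in DMSO and 93.3, 110 and 114 CPM in dCeMM-2 and rose by 3.05 (SE 0.10). KLF5, a Krüppel-like transcription factor, had 6.02, 5.58 and 5.94 CPM in DMSO and 49.1, 49.7 and 37.0 CPM in dCeMM-2 and rose by 2.97 (SE 0.13). Each of these 3 genes was also called higher against spike-in RNA, by 1.37, 1.30 and 1.21. KLF2 and CITED4 rose by 3.38 and 3.35 from DMSO levels under 1 CPM, and KLF2 by 4.10 without DMSO replicate 1. IER3, an early response gene, had 0.116, 0.365 and 0 CPM in DMSO, so its rise of 5.79 (SE 0.42) rests on few DMSO reads and was 6.98 without DMSO replicate 2.

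**Figure D2:**
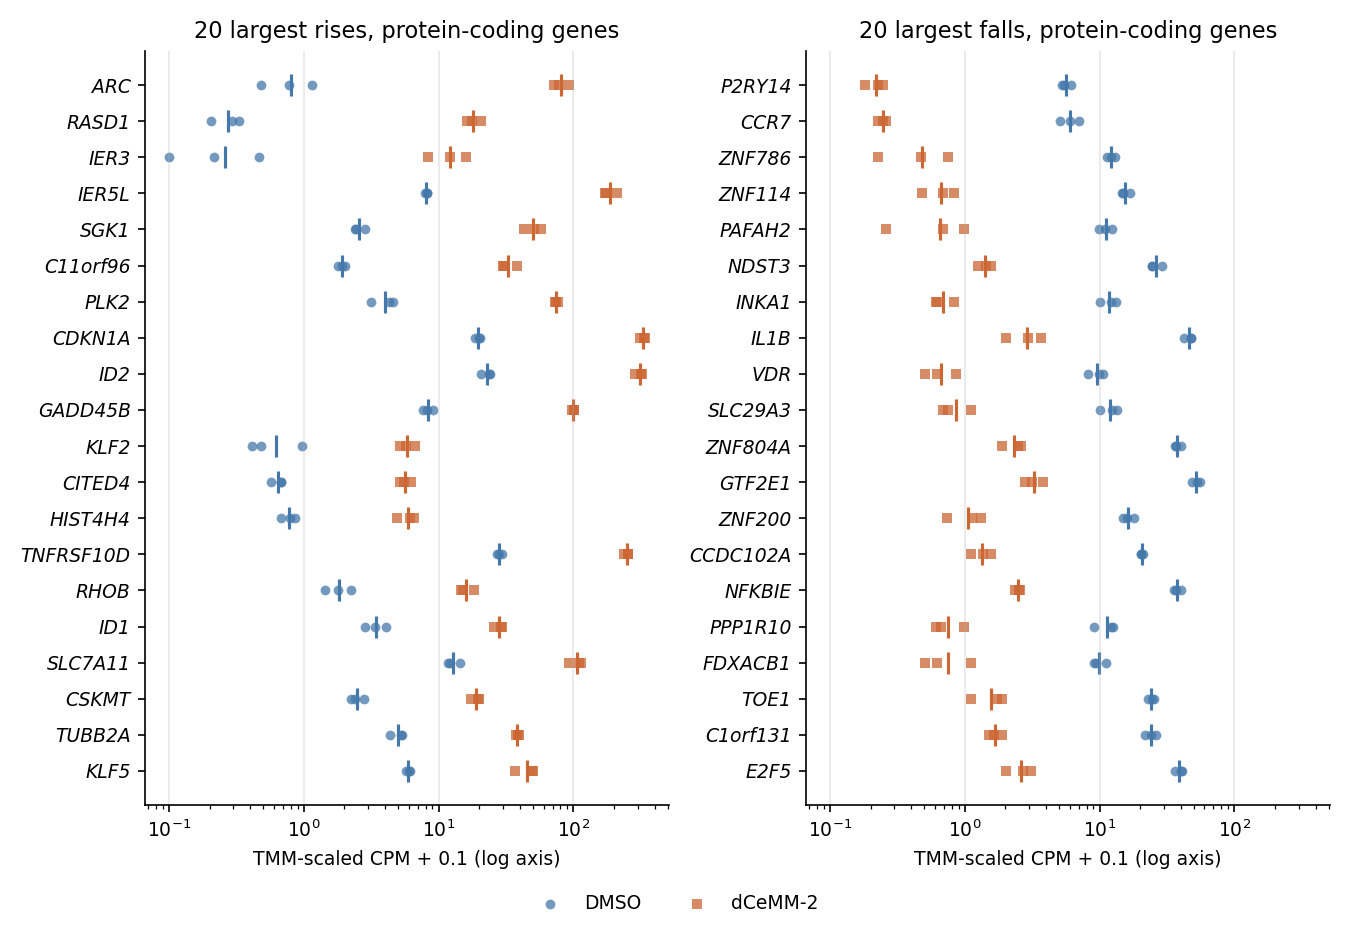
Each point is 1 library, placed by its TMM-scaled CPM plus 0.1 on a log axis, with a vertical tick at the mean of each group, for the 20 protein-coding genes with the largest rises (left) and the 20 with the largest falls (right). Separate groups were required for a gene to be shown. ID2 has 288 to 323 CPM with dCeMM-2 against 20.5 to 24.1 CPM with DMSO.

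Immediate early genes are induced within minutes by growth factors and stress, and many encode transcription factors or unstable transcripts. The tested members mostly rose on the TMM scale but divided against spike-in RNA. Of 35 listed 33 were tested, and 25 rose and 4 fell, with a median log2 fold change of 1.62. Against spike-in RNA 10 were higher, 14 lower and 9 not called, with a median of -0.14. Members of low level could pass the filter on low counts through their dCeMM-2 libraries alone. ARC, the member with the largest rise, had 1.04, 0.678 and 0.383 CPM in DMSO. These counts therefore hold for the tested members only. PLK2, a polo-like kinase of the stress response, rose by 4.17 (SE 0.11) from 4.51, 4.18 and 3.07 CPM to 73.2, 76.8 and 74.2 CPM. The list was not uniform. EGR1, an early growth response factor, went from 59.0, 70.4 and 73.2 CPM to 45.5, 41.0 and 35.9 CPM and fell by 0.71 (SE 0.10). FOSL1, a Fos-family partner of Jun proteins, had 24.6, 22.5 and 24.5 CPM in DMSO and 5.50, 5.18 and 5.74 CPM in dCeMM-2 and fell by 2.12 (SE 0.12). The ERK phosphatase gene DUSP2 fell by 1.46 (SE 0.12). EGR3, FOSL2, NR4A3 and BTG2 were not called on the TMM scale. These 7 genes that did not rise were picked out after their values were seen. Among 12 ERK and receptor feedback genes, which brake growth factor signalling, 6 rose and 2 fell on the TMM scale, while 1 was higher and 9 were lower against spike-in RNA. DUSP6, the ERK-specific phosphatase, had 148, 145 and 146 CPM in DMSO and 261, 264 and 226 CPM in dCeMM-2, which was 0.78 (SE 0.07) on the TMM scale and -1.0 against spike-in RNA. ERRFI1, an inhibitor of the EGF receptor, was the gene higher on both, at 2.40 (SE 0.16) and 0.63.

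The promoters of 3 rising genes are shown because they carry a TATA box motif just before the start site, and that of 1 falling gene for contrast. They were chosen after the motifs were seen and do not stand for all genes of either direction. They are the 250 bases before to 50 bases after the RefSeq start in GRCh38.p14, read 5′ to 3′ on the gene's strand, which is the plus strand for all 4, with TATAAA in capitals. GADD45B lies at chr19:2475877-2476176, FOS at chr14:75278578-75278877, JUNB at chr19:12791236-12791535 and GTF2E1 at chr3:120742494-120742793.
GADD45B: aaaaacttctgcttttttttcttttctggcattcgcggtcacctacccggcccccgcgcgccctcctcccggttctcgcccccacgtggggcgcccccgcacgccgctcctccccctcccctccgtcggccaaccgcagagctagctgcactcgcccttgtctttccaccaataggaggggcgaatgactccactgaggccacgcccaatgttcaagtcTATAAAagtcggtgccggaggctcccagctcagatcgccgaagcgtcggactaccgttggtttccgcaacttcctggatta
FOS: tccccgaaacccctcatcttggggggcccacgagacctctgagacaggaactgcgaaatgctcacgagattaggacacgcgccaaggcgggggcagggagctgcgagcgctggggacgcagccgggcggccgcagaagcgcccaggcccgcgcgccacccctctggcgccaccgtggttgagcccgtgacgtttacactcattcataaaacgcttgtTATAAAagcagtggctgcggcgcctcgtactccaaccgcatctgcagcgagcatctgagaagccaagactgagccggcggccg
JUNB: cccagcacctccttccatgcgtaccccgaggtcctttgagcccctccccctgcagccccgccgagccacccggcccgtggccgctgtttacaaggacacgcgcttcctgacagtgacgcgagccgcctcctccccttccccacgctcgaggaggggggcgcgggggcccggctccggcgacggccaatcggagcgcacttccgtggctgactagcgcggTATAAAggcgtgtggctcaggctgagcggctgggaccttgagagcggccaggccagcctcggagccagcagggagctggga
GTF2E1: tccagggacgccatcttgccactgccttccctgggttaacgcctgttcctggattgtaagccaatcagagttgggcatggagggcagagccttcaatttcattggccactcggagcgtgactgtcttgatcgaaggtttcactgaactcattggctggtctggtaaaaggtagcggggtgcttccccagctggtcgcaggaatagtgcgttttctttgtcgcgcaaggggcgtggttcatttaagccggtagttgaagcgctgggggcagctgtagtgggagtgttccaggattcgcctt

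Counted from the start site, the first base of TATAAA was at -31 in GADD45B, -33 in FOS and -31 in JUNB. FOS had 10.9, 14.4 and 13.8 CPM in DMSO and 81.8, 71.9 and 72.2 CPM in dCeMM-2. JUNB had 69.5, 74.0 and 71.1 CPM in DMSO and 463, 410 and 369 CPM in dCeMM-2. Across the 10455 tested genes matched by symbol to a RefSeq promoter, 6.10% held TATAAA on either strand, overlaps with other motifs allowed, within the same 300 bases, against 11.5% of all promoters in that table. Of the 20 largest rises 15 were matched and 6 of these held it (40%), while RASD1, ID2, CDKN1A and KLF5 did not. Not all 6 were placed like a TATA box on the gene's strand. In HIST4H4 the first base of TATAAA was at -250, and in SGK1 it lay on the opposite strand only. Of the 20 largest falls 15 were matched and 2 held it (13.3%), PPP1R10 with the first base at -32 and SLC29A3 at -169. It was present in 15 of the 61 matched genes that were higher on both scales (24.6%), in 9.36% of genes that rose 2-fold or more and in 4.57% of those that fell 2-fold or more. The CCAAT motif was in 34 of the same 61 promoters (55.7%), against 35.8% of the promoters of tested genes. CCGGAAGT, bound by ETS-family factors, was in 0 of the 61 and in 8.31% of the tested. These shares describe letters in a window and were not tested, and they show neither a bound factor nor a cause.

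ID genes and SMAD feedback genes, which respond to BMP and TGF-beta signals, divided by member. Of 10 tested, 6 rose and 4 fell on the TMM scale, and against spike-in RNA there were 4 higher and 6 lower. ID1, a relative of ID2, had 2.72, 3.97 and 3.26 CPM in DMSO and 29.2, 28.9 and 25.8 CPM in dCeMM-2 and rose by 3.06 (SE 0.14). ID3, the third relative, had 6.94, 6.99 and 7.09 CPM in DMSO and 41.7, 43.5 and 39.6 CPM in dCeMM-2 and rose by 2.58 (SE 0.12). TGIF1, a repressor of SMAD targets, fell by 1.68 (SE 0.13). Of 21 genes for G1 cyclins, kinases and inhibitors, 8 rose and 10 fell on the TMM scale, and against spike-in RNA there were 1 higher and 17 lower. The member that was higher on both scales was CDKN1A, the p53-induced inhibitor p21, with 19.7, 18.4 and 20.1 CPM in DMSO and 334, 313 and 340 CPM in dCeMM-2. CDKN2A, the INK4A and ARF locus, had 193, 180 and 180 CPM in DMSO and 522, 545 and 610 CPM in dCeMM-2, which was 1.60 on the TMM scale and -0.19 against spike-in RNA. E2F3, an activator of S phase genes, fell by 2.33 and CCND3, cyclin D3, by 1.55. E2F5, a repressor E2F outside that list, had 40.7, 36.4 and 40.1 CPM in DMSO and 2.60, 2.99 and 1.91 CPM in dCeMM-2 and fell by 3.91 (SE 0.14). Of 28 p53 targets 16 rose and 9 fell on the TMM scale, and against spike-in RNA 2 were higher and 21 lower. SESN2 and GADD45A, both stress-induced growth inhibitors, rose by 2.03 and 1.99 and stood at 0.24 each against spike-in RNA, where they were not called. TIGAR, a p53-induced regulator of glycolysis, fell by 1.65 and MDM2, the ligase for p53, by 0.91, so the direction of CDKN1A was not that of every p53 target. The last pair was chosen after the values were seen.

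The largest falls fell on both scales. VDR, the vitamin D receptor, had 8.16, 9.76 and 10.5 CPM in DMSO and 0.520, 0.404 and 0.766 CPM in dCeMM-2 and fell by 4.09 (SE 0.28). GTF2E1, a subunit of the general factor TFIIE, whose promoter is printed above, had 55.4, 52.5 and 48.3 CPM in DMSO and 3.04, 3.72 and 2.68 CPM in dCeMM-2. It fell by 4.03 (SE 0.12) and by 5.79 against spike-in RNA. TOE1, a deadenylase that trims the ends of small nuclear RNAs, had 24.3, 25.1 and 22.6 CPM in DMSO and 1.63, 1.78 and 1.02 CPM in dCeMM-2 (-3.97, SE 0.16). PPP1R10, a nuclear targeting subunit of protein phosphatase 1 that acts at transcription termination, fell by 3.98 (SE 0.23). GTF2E1, TOE1 and PPP1R10 overlap a counted gene on the opposite strand, as do CCNK, CDK13, DDB1, CUL4A, BRCA1, JUNB, MEPCE, GNL3, MYB, ORC2, DUSP6, HEXIM1, POLR2B, SRSF1, E2F5, DEPDC1 and GAPDH. Without a stated strand setting reads of such partners cannot be told apart. CPSF7, GNL3, RUNX1, BRCA1, MCL1 and SLC29A3 overlap a gene on their own strand, which no strand setting would separate.

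Genes for the transcription machinery changed member by member. Of 24 general transcription factor genes 4 rose and 15 fell, and all 24 were lower against spike-in RNA. TAF2, a TFIID subunit, had 192, 184 and 180 CPM in DMSO and 45.3, 43.6 and 46.1 CPM in dCeMM-2. GTF2H1, a subunit of the TFIIH helicase and kinase complex, had 111, 101 and 106 CPM in DMSO and 16, 15.4 and 20.2 CPM in dCeMM-2. These 2 genes were named for their low adjusted p, so the separation of their groups is no finding. Of 11 RNA polymerase II subunits, 7 rose on the TMM scale while all 11 were lower against spike-in RNA. POLR2A, the catalytic subunit whose tail CDK12 phosphorylates, had 280, 345 and 315 CPM in DMSO and 521, 558 and 552 CPM in dCeMM-2, 0.80 (SE 0.08) on the TMM scale and -1.0 against spike-in RNA. POLR2D and POLR2B fell by 1.55 and 1.22.

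Elongation regulators were mixed: of 32 tested 8 rose (25%) and 18 fell (56.25%) on the TMM scale, and all 32 were lower against spike-in RNA. The control of P-TEFb, the CDK9 kinase that releases paused polymerase, held opposite directions. MEPCE, which caps the 7SK RNA that holds P-TEFb inactive, had 64.5, 71.0 and 58.8 CPM in DMSO and 8.09, 7.04 and 6.38 CPM in dCeMM-2 and fell by 3.17 (SE 0.11). HEXIM1, the inhibitor protein of the particle, had 26.7, 29 and 30.9 CPM in DMSO and 69.4, 57.2 and 48.5 CPM in dCeMM-2. It was higher on the TMM scale (1.05, SE 0.11) and lower against spike-in RNA (-0.76). IWS1 and SUPT6H, a factor pair that travels with the phosphorylated polymerase, fell by 2.05 (SE 0.08) and 1.63 (SE 0.07). PAF1, of the elongation complex that bears its name, had 59.9, 58.6 and 54.4 CPM in DMSO and 17.3, 15.1 and 15.7 CPM in dCeMM-2.

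Cleavage and polyadenylation genes, whose products end the transcript, had 6 rises and 15 falls among 24 tested, and all 24 were lower against spike-in RNA. CSTF1, a subunit of the cleavage stimulation factor, had 74.6, 70.6 and 74.0 CPM in DMSO and 9.95, 10.0 and 8.04 CPM in dCeMM-2 and fell by 2.94 (SE 0.10). CPSF7, of the CFIm complex that helps choose poly(A) sites, had 129, 133 and 134 CPM in DMSO and 27.3, 22.8 and 23.1 CPM in dCeMM-2 (-2.42, SE 0.09). Both were named for their low adjusted p, so the gap between their groups is no finding. PAPOLG, a nuclear poly(A) polymerase, fell by 2.44 (SE 0.11) and WDR82, which binds the polymerase tail, by 2.04 (SE 0.06). Of 33 SR proteins and hnRNPs, which choose splice sites, 14 rose and 12 fell, a split with a median of -0.01, and all 33 were lower against spike-in RNA. SRSF1 and SRSF3 fell by 1.90 and 1.43. HNRNPA1 was at 0.98 on the TMM scale and -0.81 against spike-in RNA. Of 8 kinases that act on splicing factors 1 rose (12.5%) and 4 fell (50%). Of 14 other transcription kinases and cyclins 2 rose (14.3%) and 8 fell (57.1%).

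Homologous recombination and checkpoint genes had 25 falls and 4 rises among 31 tested (median -1.11), and the number of rises was 2 without dCeMM-2 replicate 1. EXO1, the nuclease that resects broken ends, had 52.2, 45.1 and 44.8 CPM in DMSO and 9.43, 9.95 and 8.81 CPM in dCeMM-2 and fell by 2.33 (SE 0.11). ATM, the double-strand break kinase, chosen after its values were seen, did not follow. It had 128, 139 and 132 CPM in DMSO and 244, 278 and 313 CPM in dCeMM-2, which was 1.06 (SE 0.12) on the TMM scale and -0.73 against spike-in RNA. Of 14 Fanconi anaemia genes 11 fell and 3 rose on the TMM scale, and all 14 were lower against spike-in RNA. SLX4, a nuclease scaffold, and UBE2T, the ubiquitin-conjugating enzyme of the pathway, fell by 2.04 and 2.01. Of 32 genes for mismatch, excision and end-joining repair, 10 rose and 15 fell, a median of -0.10.

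DNA replication genes were split much as all protein-coding genes were. Of 36 tested, 13 rose (36.1%) and 19 fell (52.8%) on the TMM scale, and 35 were lower against spike-in RNA. ORC2, a subunit of the origin recognition complex, had 96.6, 84.1 and 85.3 CPM in DMSO and 9.95, 11.1 and 10.7 CPM in dCeMM-2 and fell by 3.07 (SE 0.10). CDC6 and MCM10, which also act at origins, fell by 2.58 and 2.43. PCNA, the sliding clamp, had 237, 224 and 226 CPM in DMSO and 625, 615 and 617 CPM in dCeMM-2. It was at 1.44 on the TMM scale and -0.35 against spike-in RNA, where it was the member not called. Of 29 mitosis genes 23 fell and 2 rose, with a median of -1.03. AURKA, the centrosomal kinase, had 52.5, 51.8 and 50.4 CPM in DMSO and 12.3, 10.1 and 13.1 CPM in dCeMM-2 and fell by 2.14 (SE 0.10). PLK1, the main polo-like kinase of mitosis, and CENPF, of the kinetochore, fell by 1.53 and 1.41.

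**Figure D3:**
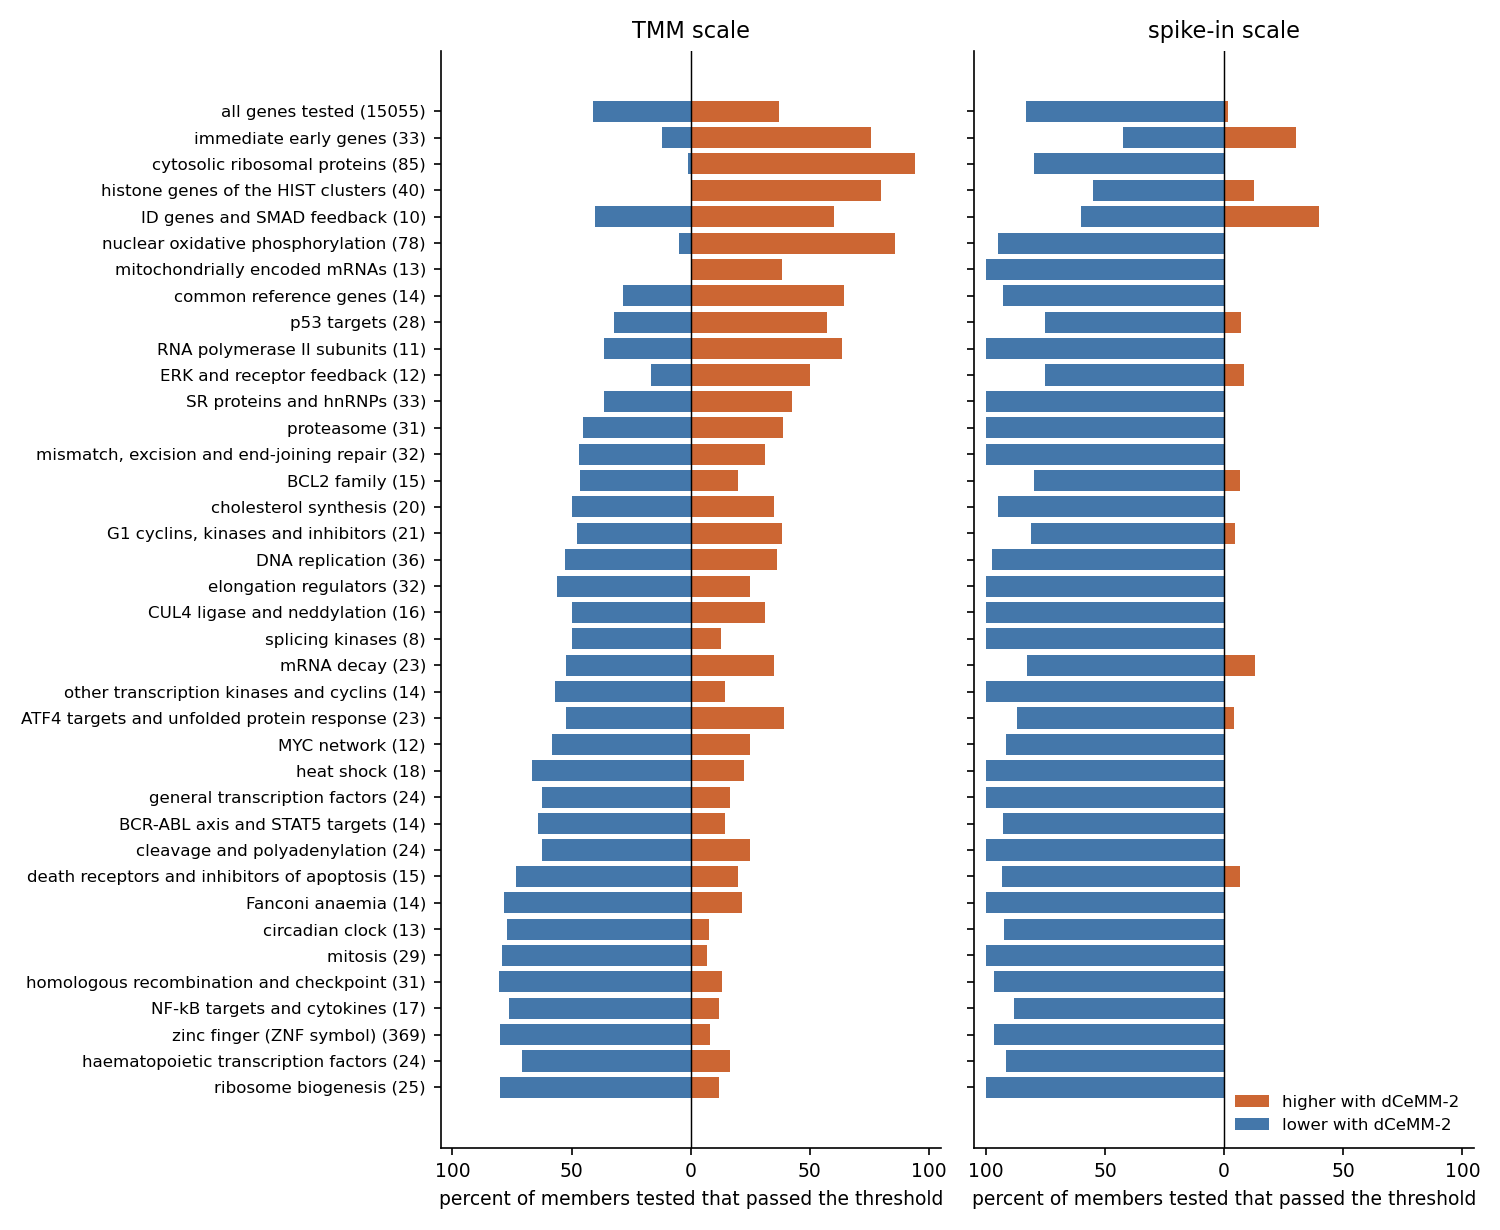
Bars give, for each gene list of at least 8 tested genes, with the number of genes tested in brackets, the percent of tested members called higher (to the right of 0) and lower (to the left) with dCeMM-2, on the TMM scale (left panel) and scaled to spike-in counts (right panel). Lists run from the highest median at the top (below the bar of all genes) to the lowest at the bottom, as with immediate early genes (25 higher and 4 lower of 33) and ribosome biogenesis (3 higher and 20 lower of 25).

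The making of ribosomes and the ribosome itself went opposite ways on the TMM scale. Of 25 ribosome biogenesis genes 20 fell and 3 rose, with a median of -1.69, and all 25 were lower against spike-in RNA. GNL3, nucleostemin, had 254, 239 and 230 CPM in DMSO and 24.6, 27.7 and 28.2 CPM in dCeMM-2 and fell by 3.18 (SE 0.08). POLR1A, the catalytic subunit of RNA polymerase I, which makes ribosomal RNA, fell by 2.76 (SE 0.09). POLR1B, its second largest subunit, had 196, 189 and 188 CPM in DMSO and 35.1, 34.7 and 32.7 CPM in dCeMM-2. Of 85 tested cytosolic ribosomal protein genes 80 rose and 1 fell on the TMM scale (median 1.30), and against spike-in RNA none was higher and 68 were lower (median -0.48). That count of 68 was 38 without DMSO replicate 2 or 3, 31 without dCeMM-2 replicate 1 and 27 without dCeMM-2 replicate 3. Ribosomal protein genes took 6.93%, 6.74% and 6.55% of gene counts in DMSO and 13.5%, 13.5% and 14.4% in dCeMM-2. Of 78 nuclear oxidative phosphorylation genes 67 rose and 4 fell on the TMM scale, and 74 were lower against spike-in RNA. Of 71 histone cluster genes 40 were tested, with a median of 2.60 CPM in DMSO. Of these 32 rose and none fell on the TMM scale, and against spike-in RNA 5 were higher and 22 lower. A low gene could pass the filter on low counts through treated libraries alone, and HIST1H3J was tested with no counts in DMSO. These counts therefore do not show how the whole list moved. Without a filter, the 71 took a mean of 0.0226% of gene counts in DMSO and 0.0458% in dCeMM-2. For both histone and ribosomal protein genes, near-identical copies could move reads between genes.

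Mitochondrially encoded RNA, which is made by its own polymerase in the mitochondrion, did not separate the groups. Its share of gene counts was 4.62%, 4.93% and 5.89% in DMSO and 9.10%, 6.90% and 5.09% in dCeMM-2, with overlap (exact two-sided permutation test, p = 0.2). Of its 13 mRNAs 5 rose on the TMM scale and 13 were lower against spike-in RNA. The number that rose was 8 with DESeq2, with DESeq2's size factors in edgeR and with only the 2 groups in the fit, 3 without DMSO replicate 1 and 2 without dCeMM-2 replicate 1.

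Zinc finger genes, the largest family of transcription factors and many of them in clusters on chromosome 19, were low as a class. Genes with a ZNF symbol took 1.04%, 1.02% and 1.03% of gene counts in DMSO and 0.464%, 0.469% and 0.434% in dCeMM-2, with no overlap (exact two-sided permutation test, p = 0.1, the smallest possible). Of 369 tested, 296 fell and 29 rose, with a median of -1.31 on the TMM scale and -3.07 against spike-in RNA. Among the 170 on chromosome 19, 138 fell and 14 rose, with a median of -1.37. ZNF146 had 231, 197 and 213 CPM in DMSO and 31.6, 30.0 and 32.4 CPM in dCeMM-2 and fell by 2.77 (SE 0.08), and ZNF202 fell by 3.48 (SE 0.12).

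Genes of mRNA decay, which set how long transcripts last, were also split near the protein-coding background. Of 23 tested 8 rose (34.8%) and 12 fell (52.2%) on the TMM scale, and 3 were higher and 19 lower against spike-in RNA. TOB1, which recruits the deadenylase, had 7.52, 9.19 and 7.67 CPM in DMSO and 63.5, 62.6 and 50.8 CPM in dCeMM-2 and rose by 2.84 (SE 0.11). ZFP36L1, which binds AU-rich elements in unstable transcripts, had 21.6, 24.8 and 25.5 CPM in DMSO and 119, 120 and 113 CPM in dCeMM-2. TOB1 and ZFP36L1 were also higher against spike-in RNA, by 1.08 and 0.51. LSM1, of the ring that marks decapping targets, fell by 1.61 (SE 0.08).

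Transcription factors that define blood lineages fell in most cases. Of 24 tested haematopoietic factors 17 fell and 4 rose, with a median of -1.42 on the TMM scale and -3.21 against spike-in RNA. IKZF1, the Ikaros zinc finger factor, had 59.2, 61.8 and 64.4 CPM in DMSO and 9.13, 10.0 and 9.06 CPM in dCeMM-2 and fell by 2.70 (SE 0.10). MYB, which sustains immature blood cells, had 867, 762 and 783 CPM in DMSO and 188, 200 and 175 CPM in dCeMM-2 and fell by 2.10 (SE 0.07). RUNX1, a core factor of blood stem cells, fell by 2.15 (SE 0.08). HHEX, a homeobox factor, ran the other way with 72.9, 62.8 and 60.9 CPM in DMSO and 262, 280 and 254 CPM in dCeMM-2. It rose by 2.01 (SE 0.08) and was not called against spike-in RNA (0.25). In the MYC network of partners and antagonists 3 of 12 rose (25%) and 7 fell (58.3%). Of 14 genes of the BCR-ABL axis and STAT5 targets, the growth signal of this leukaemia, 2 rose (14.3%) and 9 fell (64.3%). Of 13 circadian clock genes 10 fell and 1 rose, with a median of -1.01. TEF, a factor that follows the clock, had 14.9, 15.9 and 12.8 CPM in DMSO and 1.19, 0.809 and 1.15 CPM in dCeMM-2. The 1 that rose was BHLHE40, a stress-responsive repressor of the clock, at 1.43 (SE 0.06) on the TMM scale and -0.35 against spike-in RNA.

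Death receptor signalling held large falls beside a large rise. Of 15 genes for death receptors and inhibitors of apoptosis, 11 fell and 3 rose. FADD, the adaptor that links death receptors to caspase 8, had 49.0, 49.0 and 50 CPM in DMSO and 4.16, 3.48 and 4.08 CPM in dCeMM-2 and fell by 3.66 (SE 0.12). TNFRSF1A, the receptor for tumour necrosis factor, had 94.6, 99.2 and 98.3 CPM in DMSO and 7.80, 7.68 and 8.68 CPM in dCeMM-2 and fell by 3.61 (SE 0.10). RIPK1, the kinase below that receptor, fell by 2.43, against the rise of TNFRSF10D given above. In the BCL2 family, which controls the mitochondrial path to cell death, 3 of 15 rose (20%) and 7 fell (46.7%, near the protein-coding background). The number that fell was as low as 5 with 1 library left out. The proapoptotic PMAIP1 had 34.6, 23.3 and 27.4 CPM in DMSO and 130, 145 and 135 CPM in dCeMM-2, a rise of 2.26 (SE 0.10) and 0.51 against spike-in RNA. MCL1, an antiapoptotic protein with a short-lived transcript, had 208, 204 and 194 CPM in DMSO and 199, 199 and 155 CPM in dCeMM-2, with overlap, and was not called on the TMM scale (-0.13, edgeR adjusted p = 0.215). BCL2L1, which encodes the antiapoptotic BCL-XL, had 112, 108 and 93.9 CPM in DMSO and 38.7, 32.6 and 35.6 CPM in dCeMM-2 and fell by 1.56 (SE 0.09). Of 17 NF-kB targets and cytokines 13 fell and 2 rose, among them the cytokine gene OSM, which fell by 2.81 (SE 0.12).

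Stress and metabolic lists were divided. Of 23 ATF4 targets and unfolded protein response genes, 9 rose and 12 fell on the TMM scale, and 1 was higher and 20 lower against spike-in RNA. The 1 higher on both scales was SLC7A11. XBP1, the factor of the unfolded protein response, had 1026, 930 and 972 CPM in DMSO and 127, 116 and 129 CPM in dCeMM-2 and fell by 2.98 (SE 0.07). PSAT1, of serine synthesis and an ATF4 target, was at 1.35 on the TMM scale and -0.42 against spike-in RNA. Of 18 heat shock genes 12 fell and 4 rose, and the chaperone genes HSPA4 and DNAJB1 fell by 1.38 and 1.59. Of 20 cholesterol synthesis genes 10 fell and 7 rose, and of 31 proteasome genes 14 fell and 12 rose. Among 14 genes often used as references for expression, 9 rose and 4 fell on the TMM scale while 13 were lower against spike-in RNA. GAPDH had 1487, 1608 and 1417 CPM in DMSO and 4444, 4105 and 4520 CPM in dCeMM-2, which was 1.53 on the TMM scale and a call of neither direction against spike-in RNA (-0.26).

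The 223 genes that were higher on both scales fell into these types. They held 83 of 12332 protein-coding genes tested (0.673%), 35 of 428 lincRNAs, 25 of 569 antisense genes and 17 of 127 sense intronic genes. A gene of low level could pass the filter on low counts through its dCeMM-2 libraries alone, so these numbers support no difference between types. The number of lincRNAs was 17 without DMSO replicate 1, and that of antisense genes 15. Of the 83 protein-coding genes, 61 spanned under 20 kb (73.5%, against 35.2% of tested protein-coding genes) and 49 had at most 3 exons (59.0% against 18.1%). Their median span was 4.80 kb, against 33.2 kb. Because the members of such a set were chosen by these same counts, the shares are given as a description with no test.

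Tested protein-coding genes were grouped by span, from the first to the last annotated base, and the median change on the TMM scale was lowest at 50 to 100 kb and higher on either side. The median was 0.38 for the 1004 genes under 5 kb, -0.18 from 10 to 20 kb, -0.39 from 50 to 100 kb and 0.30 for the 149 genes of 500 kb or more. Those tested were 1004 of 2747 genes under 5 kb, 2221 of 3043 at 50 to 100 kb and 149 of 315 of 500 kb or more. Their median DMSO levels were 11.8, 38.1 and 8.65 CPM. Low genes could pass the filter on low counts through dCeMM-2 libraries alone, and the part of this in the medians was not tested. The pattern differed by level, taken as the mean CPM of the 6 libraries. Among genes of 50 CPM or more the median was 0.47 for the 1186 under 20 kb, of which 60.5% rose, and -0.17 for the 829 of at least 100 kb, of which 32.7% rose. Among genes of 5 to 20 CPM the medians of the same spans were -0.51 and -0.26, in the opposite order. The medians of all spans against spike-in RNA ran from -1.40 for the shortest through -2.16 at 50 to 100 kb to -1.44 for the longest. Within each library, the median log2 level of genes of at least 100 kb minus that of genes under 20 kb was 0.623, 0.529 and 0.543 in DMSO and 0.518, 0.650 and 0.592 in dCeMM-2. The groups overlapped, and the mean difference of 0.022 was small beside the spread (exact two-sided permutation test, p = 0.7). It was -0.0463 over genes of at least 5 CPM (p = 0.2 by the same exact test) and -0.00957 without dCeMM-2 replicate 2. The same measure had a mean of 0.756 in dCeMM-3, 0.910 in THZ531 and 0.514 in dCeMM-4.

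**Figure D4:**
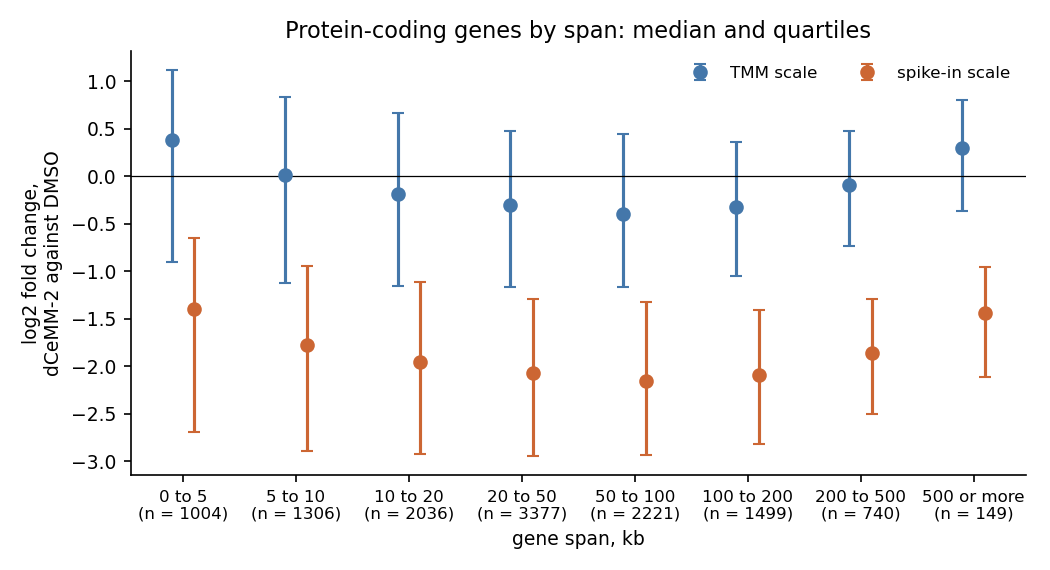
For tested protein-coding genes in bins of gene span in kb (horizontal axis, with the number of genes), points give the median and bars the quartiles of the log2 fold change of dCeMM-2 over DMSO, on the TMM scale and scaled to spike-in counts. On the TMM scale the median goes from 0.38 under 5 kb to -0.39 at 50 to 100 kb and to 0.30 at 500 kb or more. Genes of low level could pass the filter on low counts through dCeMM-2 libraries alone.

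Small nuclear RNA genes, summed, gained more than the other gene types summed here. These short RNAs are the cores of the spliceosome and are made by RNA polymerase II or III, and mature forms carry no poly(A) tail, so a poly-A enriched library is expected to hold little of them. The sequences of 2 are printed because they had no count in any DMSO library. They are GENCODE release 29 transcripts on GRCh38, 5′ to 3′ on the plus strand, and the capitals mark A, then 4 to 6 Ts, then G, the form of the site where the Sm protein ring sits. RNU4ATAC lies at chr2:121530881-121531007 and RNU11 at chr1:28648600-28648733.
RNU4ATAC: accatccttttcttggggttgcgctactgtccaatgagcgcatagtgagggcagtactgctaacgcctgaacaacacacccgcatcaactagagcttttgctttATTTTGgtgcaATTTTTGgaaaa
RNU11: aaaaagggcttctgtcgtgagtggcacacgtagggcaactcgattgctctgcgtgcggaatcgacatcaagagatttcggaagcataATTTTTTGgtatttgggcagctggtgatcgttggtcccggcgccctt

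RNU4ATAC, of the minor spliceosome that removes a rare class of introns, had no counts in DMSO and 62, 66 and 51 in dCeMM-2. Against a floor of 3 counts over the DMSO group, that was 73.9-fold higher on the TMM scale and 22-fold higher against spike-in RNA. The lower limits of the 95% intervals were 59.4-fold and 17.7-fold. RNU11, also of the minor spliceosome, had no counts in DMSO and 22, 14 and 6 in dCeMM-2. By the same floor it was 17.3-fold and 5.17-fold higher, with lower 95% limits of 13.5-fold and 4.02-fold. RNU4-2, a U4 RNA, had 2, 1 and 1 counts in DMSO and 37, 35 and 27 in dCeMM-2. That was 30.6-fold (95% interval 11.6 to 115) and 9.14-fold (interval 3.46 to 34.2) higher.

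RNU4ATAC lies opposite CLASP1, whose reads cannot be told apart from its own without a strand setting, and overlaps AC012447.1 on its own strand, which no strand setting would separate. RNU11 and RNU4-2 were chosen after their values were seen. Only 17 small nuclear RNA genes passed the filter on low counts, and one that passed only through its dCeMM-2 libraries had to differ, so no count over the tested ones is given. Without any filter, the 1909 annotated small nuclear RNA genes together took 6.51, 6.78 and 9.13 CPM, here as a plain share of gene counts, in DMSO and 62.2, 61.8 and 63.9 in dCeMM-2. The sums were 8.38-fold apart and 2.92-fold apart against the spike-ins (exact two-sided permutation test, p = 0.1 for each, the smallest possible). By the same sums snoRNA genes were 1.73-fold higher against gene counts and 0.599 times DMSO against the spike-ins. Sense intronic genes were at 1.51 and 0.532 times DMSO and lincRNAs at 2.79 and 0.976 times DMSO.

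**Figure D5:**
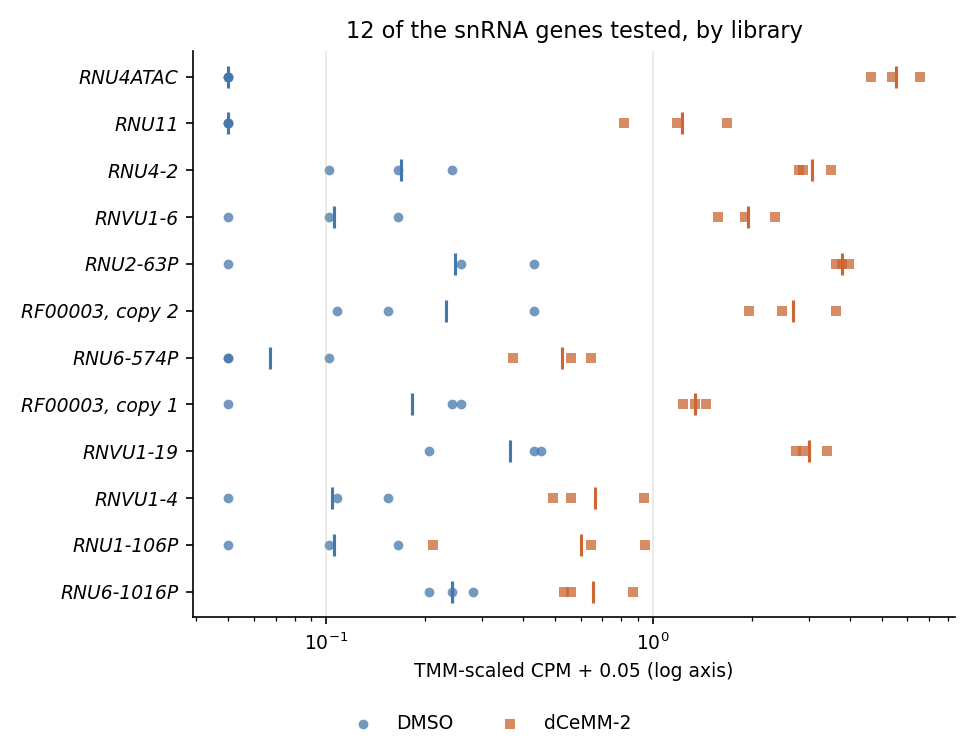
Each point is 1 library of DMSO or dCeMM-2, placed by its TMM-scaled CPM plus 0.05 on a log axis, with a vertical tick at the mean of each group, for 12 of the 17 small nuclear RNA genes tested. RNU4ATAC and RNU11 have no counts in DMSO and sit at the left edge.

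Other library measures moved with the treatment. Reads that aligned once but lay in no gene made up 6.62%, 7.42% and 7.43% in DMSO and 10.1%, 11.8% and 13.2% in dCeMM-2. Long non-coding genes took a mean of 0.768% of gene counts in DMSO and 1.5% in dCeMM-2 (exact two-sided permutation test, p = 0.1, adjusted to 0.125 over 5 classes). The part of reads outside genes in the results for non-coding genes was not tested.

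dCeMM-3 and dCeMM-4, which are also known as cyclin K degraders, were given at the same multiple of EC50 for the same time, and the difference from dCeMM-2 was tested directly on the TMM scale. Against dCeMM-3, 4008 genes were higher in dCeMM-2 (26.6%) and 2480 lower (16.5%). That split depended on the scaling: it was 3535 higher and 3363 lower with DESeq2's size factors in the same edgeR test and 3447 and 3112 with DESeq2. At 2-fold or more it was 1830 higher and 239 lower. CDK12 was not called (0.01, 95% interval -0.15 to 0.18, edgeR adjusted p = 0.903), and neither was PMAIP1 (-0.02, interval -0.22 to 0.18). CUL4A was at -0.03 (interval -0.18 to 0.11). CCNK was 1.83 higher (SE 0.07) in dCeMM-2 and CDK13 1.23 higher (SE 0.08).

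The genes farthest above dCeMM-3 included MYC, ERK phosphatases and other regulators. MYC, the growth-promoting transcription factor, had 777, 837 and 791 CPM in DMSO and 489, 491 and 445 CPM in dCeMM-2, and its log2 fold change against DMSO was -0.75 with dCeMM-2 and -5.56 with dCeMM-3, a difference of 4.80 (SE 0.08, edgeR adjusted p = 1.41e-35). DUSP5, a nuclear ERK phosphatase, was 5.12 higher in dCeMM-2 (SE 0.21) and DUSP6 4.65 higher (SE 0.09). KLF5 was 4.34 higher (SE 0.15), CXCR4, a chemokine receptor, 4.60 (SE 0.26) and the cochaperone BAG3 4.15 (SE 0.10). MCL1 was 1.89 higher (SE 0.10) and POLR2A 2.05 higher (SE 0.08). Of 33 immediate early genes, 32 were higher in dCeMM-2 than in dCeMM-3 and none lower, with a median difference of 1.80, and all 12 ERK feedback genes were higher with a median of 2.01. ID and SMAD feedback genes had 8 higher of 10. In the other direction, DEPDC1, a mitotic gene, was at -2.09 (SE 0.12) and CXCL10, an interferon-induced chemokine, at -1.73 (SE 0.07). SLC7A11 was at -0.53 (SE 0.08), and of the 13 mitochondrial mRNAs 10 were lower in dCeMM-2.

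Against dCeMM-4, 5782 genes were higher in dCeMM-2 (38.4%) and 5857 lower (38.9%). Spike-in RNA made up a mean of 0.234% of gene plus spike-in counts in dCeMM-4, 0.512% in dCeMM-2 and 0.542% in dCeMM-3. Differences from both compounds are therefore relative to the bulk of the genes, and those against spike-in RNA are not given. The log2 fold change of CDK12 against DMSO was 0.06 with dCeMM-4, and the difference of dCeMM-2 from it was -2.10 (SE 0.07). CDK13 differed by -1.31 (SE 0.07) and CCNK by -0.21 (SE 0.06, edgeR adjusted p = 0.00169). MYB was 2.09 lower in dCeMM-2 (SE 0.07), and its change against DMSO with dCeMM-4 was -0.01. VDR differed by -3.44 (SE 0.30), GTF2E1 by -2.29 (SE 0.14), FADD by -2.38 (SE 0.12) and CSTF1 by -2.41 (SE 0.10). Of 25 ribosome biogenesis genes 22 were lower in dCeMM-2 than in dCeMM-4 and 2 higher (median difference -1.32), and of 369 zinc finger genes 246 were lower and 56 higher. BRCA1 went the other way, at 1.47 higher (SE 0.13). IER3, FOS and ARC were 4.60, 3.43 and 3.32 higher in dCeMM-2. On the TMM scale CXCR4 was not called (0.15, 95% interval -0.17 to 0.47, edgeR adjusted p = 0.348), nor was CUL4A (-0.01, interval -0.16 to 0.13).

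THZ531, a covalent inhibitor of CDK12 and CDK13, was given at a fixed concentration that is not matched to these doses, and its values are set beside those of dCeMM-2 with no comparison made. Both are against the same 3 DMSO libraries, on the TMM scale. CDK12 was at -2.04 with dCeMM-2 and -1.38 with THZ531, CCNK at 0.57 and -0.34, and MYC at -0.75 and -1.51. CDKN1A was at 4.09 and 4.71, SGK1 at 4.34 and 3.89 and ID2 at 3.75 and 3.33. GTF2E1 was at -4.03 and -4.53, FADD at -3.66 and -3.87 and GNL3 at -3.18 and -3.57. The changes of KLF5 were 2.97 and 1.67, and those of DUSP5 1.09 and -1.28. Because the 2 comparisons share their control libraries, likeness between them is partly built in.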

How the data were processed

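RNA of 18 KBM7 libraries was deposited by the authors as raw read counts per gene, 1 table per library, with no normalization. Tools listed in the submitters' processing notes, with no roles, are HTSeq 0.11.2, STAR 2.5.2b, Trimmomatic 0.32 and Picard, and the build is GRCh38.p7. The labels' protocols name poly-A enrichment and a kit for total RNA. Strand setting, use of molecular identifiers and the quantity of spike-in are not given in the sources used here. Reads aligned at several places were not counted to genes, which touches near-identical copies. GENCODE release 29 gave symbols, types and spans for 57447 of 58051 gene identifiers.

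Genes passing filterByExpr by group (15055) were fitted with edgeR 4.0.16 (R 4.3.3), glmQLFit with robust estimation and glmQLFTest, over all 18 libraries with 12 residual degrees of freedom. Library sizes came from TMM on human genes or from ERCC plus SIRV counts. P-values were Benjamini-Hochberg adjusted over all genes tested, with a threshold of 0.05, and SE is that of the log2 fold change. The script was tested on simulated data in which few genes changed, evenly up and down. That test does not cover data in which most genes move, as here. DESeq2 1.42.0, other scalings and filters, a fit of 2 groups, a replicate block and leaving out each library were alternatives. Single values per library were compared by exact two-sided permutation tests. Intervals of differences between compounds are the SE times a t quantile. Intervals and floors of counts cover counting error only.

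The members of the comparison and the gene lists (33 lists by hand and 6 of markers) were chosen with earlier results of these data known. Genes were named by rule. On the TMM scale it took the 20 largest rises and 20 largest falls of protein-coding genes called, with separate groups and at least 5 CPM in the higher one. To these it added the 15 largest rises against spike-in RNA, the 6 largest rises and falls of other genes, the 8 largest differences each way between compounds, up to 4 members of each list by adjusted p, and CCNK, CDK12, CDK13, DDB1, HEXIM1, BRCA1, ATR, FANCD2, MYC, MCL1 and CDKN1A. Genes chosen otherwise are marked in the text. Values of some small nuclear RNA genes are not reported here.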

Additional observations from a re-analysis of the deposited data

Results flagged for a closer look

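A pair of library measures that enter no gene count were higher with dCeMM-2 than in the control libraries. Reads that aligned once but in no annotated gene averaged 11.7% with dCeMM-2 and 7.16% with DMSO, with no overlap between the groups (exact two-sided permutation test, p = 0.1, the smallest possible). Reads that aligned at several places averaged 36.1% with dCeMM-2, with libraries at 36.9%, 35.7% and 35.9%, and 28.3% with DMSO, with libraries at 29.5%, 27.7% and 27.7% (exact two-sided permutation test, p = 0.1, the smallest possible). Their part in the gene results was not tested.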

How the results depend on the processing

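The number of genes called against DMSO was 11782 on the TMM scale, 11527 with DESeq2, 11859 with DESeq2's size factors in edgeR, 11951 with no filter on low counts, 11249 with only the 2 groups in the fit and 11334 to 11722 with each library left out. Against spike-in RNA it was 12713, with 12775 from ERCC alone, 12623 from SIRV alone and 12068 to 12999 with each library left out. Without a library the calls numbered 5800 to 6265 against dCeMM-3 and 11236 to 11403 against dCeMM-4, where the fit of all 18 libraries had 6488 and 11639 calls. With the replicate number as a block (replicate block), the 4 counts were 11774, 12641, 6493 and 11616. Libraries with the same number did not deviate together (correlations of -0.065, -0.065 and -0.007 over genes), so the numbers are not taken to pair them, and none of these 4 counts moved by over 1.5 times with the block. With only the 2 groups in the fit, 13742 genes passed the filter on low counts in place of 15055. Counts by gene type from that fit leave out genes that no longer passed, so a drop need not be a changed call. On the TMM scale 44 in place of 75 sense intronic genes rose. Against spike-in RNA that fit gave 21 in place of 35 lincRNAs higher, 11 in place of 17 processed pseudogenes higher and 29 in place of 44 sense intronic genes lower. Without dCeMM-2 replicate 2 there were 23 lincRNAs higher, and without DMSO replicate 2 there were 160 in place of 248 processed pseudogenes lower. The other counts that moved by over 1.5 times stand beside their lists, except that of tested small nuclear RNA genes, which is not given. The difference between long and short genes changed sign to -0.0463 with genes of at least 5 CPM, and with each library left out it ran from -0.00957 to 0.0564. Of the named genes, those that rose on the TMM scale and turned negative when scaled to spike-in counts were ATM (-0.73), BAG3 (-0.78), BHLHE40 (-0.35), CCNK (-1.22), CDKN2A (-0.19), CXCL10 (-1.02), DUSP5 (-0.66), DUSP6 (-1.0), GAPDH (-0.26), HEXIM1 (-0.76), HNRNPA1 (-0.81), PCNA (-0.35), POLR2A (-1.0) and PSAT1 (-0.42). The sign turns because that scale is centred at -1.80. CXCR4, GADD45A, HHEX and SESN2 stayed positive and were no longer called. Mitochondrially encoded genes have no share of nuclear counts, so that alternative was not run for them. Depth limits the low genes most: IER3 and KLF2 moved by over 1.5 times when a DMSO library was left out, as given beside them.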
